A study of Homo sapiens with 24 samples.

Results

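Of the 52777 peaks of N6-methyladenosine (m6A) immunoprecipitation in the series, 1170 (2.22%) lay on noncoding RefSeq transcripts. They were taken as every peak of the 4 deposited lists whose transcript accession starts with NR, RefSeq's prefix for noncoding RNA, leaving out MALAT1, NEAT1, NORAD and OIP5-AS1, whose 4 transcripts held 32 further peaks. The members lay on 375 transcripts of 374 genes, of which 346 had a gene symbol. The remaining 28 accessions matched no entry of the gene table used. No member was a transcript of a gene that the table calls protein-coding.

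RNA was precipitated with an antibody against m6A from U2OS cells, a human osteosarcoma line, and sequenced beside its input as single-end reads of 50 bases. The 24 samples formed 8 groups, an IP and an input group for each of 4 conditions. WT cells without UV had 3 IP libraries, and WT cells exposed to UVC at 50 J had 4. METTL3 KO cells without UV had 3 IP libraries, and METTL3 KO cells exposed to UVC at 50 J had 2. All cells had been grown with 10 µM BrdU, RNA was taken after 2 min and was selected for polyadenylated molecules in 2 rounds. The sources used here do not say whether the KO line is a single clone or how it was made.

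Each condition had 1 peak list for all its replicates, with positions along the transcript and no score or count. The depth behind a peak is therefore unknown, replicates could not be compared, and no test between conditions was possible. A list gives neither the level of METTL3 nor that of any other transcript, so a missing peak, a transcript with less RNA and fewer cells making it cannot be told apart. Sets of 4 values are given in the order WT without UV, WT with UV, KO without UV, KO with UV. The lists held 13989, 15465, 13852 and 9471 peaks in all, against 3, 4, 3 and 2 IP libraries. The part of library number and depth in the differences between lists was not tested. Among markers of other cell types, 1 of 5 blood genes, 2 of 4 epithelial genes and 1 of 4 neuronal genes had a peak in any list, while 4 of 6 genes of the osteoblast lineage had one. Of 20052 coding genes, 34.6%, 38.6%, 33.7% and 26.95% had a peak by list. The osteoblast lineage genes with one numbered 4, 2, 3 and 2 by list. Blood genes numbered 0, 1, 0 and 0, epithelial genes 0, 1, 1 and 0 and neuronal genes 1, 0, 0 and 0. So few genes do not identify the cell type.

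m6A is a methyl mark on adenosines within RNA, placed on most sites in polyadenylated RNA by a nuclear complex whose catalytic subunit is METTL3. It is found on long noncoding RNAs as well as on messenger RNAs, and proteins that read it take part in splicing, export, decay and nuclear retention. Noncoding transcripts differ widely in kind: some host small RNAs in their introns or exons, some run antisense to or away from a coding gene, and some are transcribed remnants of coding genes.

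The sequences that could be read for the members are those of gene starts and of the microRNAs that lie inside member genes, both from RefSeq (GRCh38.p14). Sequences of the peaks themselves were not used here. The microRNAs of the 3 genes named MIR...HG with a peak are shown because the peaks of these hosts are described first. Other members with a peak also span microRNAs, among them SNHG20 and TTC28-AS1, and these are not shown. MIR22HG spans miR-22-3p (chr17:1713914-1713935, minus strand) and miR-22-5p (chr17:1713952-1713973, minus strand). MIR550A3HG spans miR-550a-3p (chr7:29680748-29680769, minus strand) and miR-550a-3-5p (chr7:29680789-29680808, minus strand), and MIR4453HG spans miR-4453 (chr4:152536432-152536451, plus strand). Capitals mark the seed, bases 2 to 8, and the 5 seeds differ from each other.
miR-22-3p: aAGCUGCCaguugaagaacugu
miR-22-5p: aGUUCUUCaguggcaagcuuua
miR-550a-3p: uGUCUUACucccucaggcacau
miR-550a-3-5p: aGUGCCUGagggaguaagag
miR-4453: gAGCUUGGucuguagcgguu

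Starts of the transcripts are shown for RAB30-DT (chr11:83072066-83072115, plus strand) and LOC646903 (chr3:149971279-149971328, plus strand), which had a peak beginning in the first 50 bases in 4 and 3 lists, and for a pair of gene copies. The copies are SLX1A-SULT1A3 (chr16:30194433-30194482, plus strand) and SLX1B-SULT1A4 (chr16:29455091-29455140, plus strand), whose windows differ at 0 bases. Capitals mark GGACT, a common form of the m6A consensus, searched on the transcribed strand alone.
RAB30-DT: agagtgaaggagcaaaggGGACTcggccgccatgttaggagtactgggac
LOC646903: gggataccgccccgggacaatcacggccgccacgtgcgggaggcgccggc
SLX1A-SULT1A3: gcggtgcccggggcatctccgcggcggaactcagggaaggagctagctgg
SLX1B-SULT1A4: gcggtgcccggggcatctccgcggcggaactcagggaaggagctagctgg

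The RAB30-DT transcript, which starts divergently from RAB30, had 1 peak in each list, at bases 24 to 188, 24 to 189, 17 to 179 and 20 to 179. The GGACT at bases 19 to 23 thus lay inside the KO minus UV peak, across the start of the KO plus UV peak and just before both WT peaks. Noncoding peaks shared between lists had median distances between centres of 9.50 to 13.0 bases, so these placings do not set the lists apart. GGACT occurred in the first 50 bases of 1 of 25 noncoding genes with a start peak (4%, 95% Wilson interval 0.710 to 19.5) and of 70 of 1387 coding genes with one (5.05%), against 1088 of 22114 genes (4.92%). Among all noncoding genes with a peak anywhere on the transcript it was 13 of 130 (10.0%, 5.94 to 16.4), an interval above the share of all genes. In this count the peak need not lie near the window, so it says nothing of the sequence within peaks. It was not set beside coding genes with a peak anywhere or noncoding genes without one. These counts are of genes with 1 listed start, and the start in the table may differ from that of the transcript in the peak lists. No match says only that these letters are not in this window.

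Noncoding peaks numbered 313, 375, 311 and 171, and they lay on 207, 247, 210 and 119 genes. They made up 2.24%, 2.43%, 2.25% and 1.81% of their lists, with 95% Wilson intervals of 2.01 to 2.50, 2.19 to 2.68, 2.01 to 2.51 and 1.56 to 2.09. The interval for KO plus UV lies below that for WT plus UV, while all other pairs of intervals overlap. These and all other intervals cover counting error alone, since peaks on a transcript share their source and no molecular identifiers mark independent molecules.

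Noncoding transcripts tended to carry a single peak. That was so for 68.8%, 67.3%, 71.0% and 71.7% of those with any peak, against 47.8%, 47.4%, 46.7% and 55.0% of coding transcripts. The differences were 21.0, 20.0, 24.3 and 16.7 points, and the lowest bound of their 95% Newcombe intervals was 7.96. The most peaks on 1 noncoding transcript in a list were 5, 5, 6 and 4. Median widths were 174, 174, 175 and 163 bases, against 186, 190, 183 and 177 on coding transcripts. The narrowest peaks, of 100 bases, made up 5.75%, 7.73%, 4.82% and 10.5% of noncoding peaks and 6.86%, 4.50%, 5.95% and 9.58% of coding peaks.

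Pseudogenes, remnants or copies of other genes that are still transcribed, formed the largest type with 135, 149, 116 and 71 peaks, on 139 genes in any list. Antisense transcripts, named -AS after the gene on the opposite strand, carried 36, 51, 41 and 19 peaks on 59 genes. Long intergenic transcripts (LINC) carried 32, 39, 34 and 7 on 41 genes. Readthrough transcripts, which join 2 neighbouring genes, carried 23, 34, 21 and 18 on 28 genes, and divergent transcripts (-DT) carried 15, 13, 12 and 6 on 19 genes. Smaller types were snoRNA hosts of the SNHG series (7 genes), microRNA hosts (3), intronic or overlapping transcripts (2), structured RNAs (5), genes with LOC numbers (17), other long noncoding RNAs (26) and the 28 unmatched accessions.

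**Figure D1:**
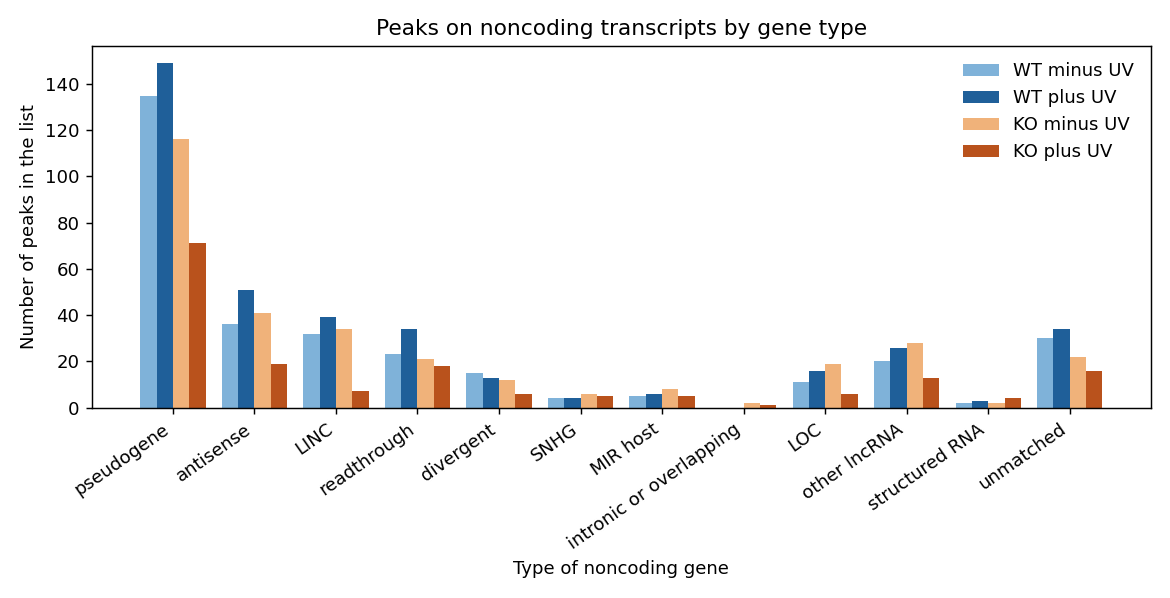
Number of peaks (vertical axis) on noncoding transcripts of each gene type (horizontal axis) in the 4 peak lists, 1 bar per list without replicate values. Pseudogenes hold 135, 149, 116 and 71 peaks, and LINC transcripts drop from 34 in KO minus UV to 7 in KO plus UV.

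The LINC type took 4.09% of noncoding peaks in KO plus UV (95% Wilson interval 2.00 to 8.21), against 10.2% (7.34 to 14.1), 10.4% (7.70 to 13.9) and 10.9% (7.93 to 14.9) in the other lists. Its share in KO plus UV was thus the smallest of the 4 lists, with an interval that overlaps the others at its upper end. Pseudogenes took 43.1%, 39.7%, 37.3% and 41.5%, with intervals that all overlap.

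Peaks that began in the first 50 bases of the transcript were 32, 48, 35 and 25 in number, or 10.2%, 12.8%, 11.3% and 14.6%. The coding shares were 9.20%, 10.3%, 8.99% and 10.7%, and all 4 intervals of the difference include 0. Within the noncoding set, pseudogenes had the larger share: 20 of 135 (14.8%), 25 of 149 (16.8%), 22 of 116 (18.97%) and 15 of 71 (21.1%), against 6.74%, 10.2%, 6.67% and 10.0% of the other types. The differences were 8.07 points (1.22 to 15.6), 6.60 (-0.322 to 14.2), 12.3 (4.78 to 20.8) and 11.1 (0.289 to 22.9), so the interval for WT plus UV alone reached 0. Gene copies were counted apart, such as GTF2IP1 and GTF2IP4, which both had a start peak in every list. The intervals may therefore be too narrow, and they were not recomputed without such copies.

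Of the 7 regions on microRNA hosts named MIR...HG, 5 held a peak in every list, against 25.7% of all regions and 14.7% of noncoding ones. The 5 lie on 2 genes, MIR550A3HG with 3 and MIR22HG with 2, and the third host, MIR4453HG, has 0. MIR550A3HG (chromosome 7, 29645922 to 29685138, GRCh38) carried 3, 3, 4 and 3 peaks and the longest total peak length of any member, 3329 bases over the 4 lists. Its peaks lay near the start, between bases 447 and 958, and between bases 4765 and 5005 in each list. The first of them began at base 1 in both WT lists, at base 181 in KO minus UV and at base 101 in KO plus UV. MIR22HG (chromosome 17, 1711504 to 1716210), the host of miR-22, carried 2, 2, 3 and 2 peaks. A first peak spanned bases 1301 to 1615, 1293 to 1560, 1301 to 1632 and 1293 to 1587, and a later one reached from 1921, 1881, 1881 and 1871 to 2060, 2103, 2105 and 2106. MIR4453HG had 1 peak in WT plus UV and 1 in KO minus UV. Of the 90 microRNA hosts of the list used, these 3 and NUTM2A-AS1 had a peak. That list does not hold other members that span a microRNA, such as SNHG20 and TTC28-AS1. The share of all noncoding genes of the gene table with a peak was not counted, so this count cannot be called high or low.

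Among hosts of small nucleolar RNAs, the guides of ribosomal RNA modification, 7 of 34 had a peak in any list, with 4, 4, 6 and 5 peaks. Here too the share over all noncoding genes of the gene table was not counted. SNHG16 was the single host with a peak in every list, at bases 445 to 618, 444 to 610, 444 to 611 and 444 to 615. A second SNHG16 peak was present in the KO lists alone, at 2251 to 2410 without UV and 2261 to 2380 with UV. SNHG15 had a peak near its start in WT plus UV and in both KO lists, and SNHG33 in every list but WT plus UV. SNHG18 lacked a peak in KO minus UV alone, SNHG20 had 1 peak in each WT list and 0 in KO, and SNHG1 and SNHG5 had 1 peak each, in KO minus UV. No host of this group other than SNHG16 therefore had a peak throughout.

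Antisense transcripts with a peak in every list included FGD5-AS1 and WAC-AS1. FGD5-AS1 (chromosome 3, 14942779 to 14948441) carried 4, 2, 4 and 2 peaks. Its first peak lay at bases 88 to 260, 88 to 257, 88 to 259 and 97 to 275, while later peaks without UV, at 851 to 974 and 1076 to 1301 in WT cells and at 771 to 974 and 1076 to 1291 in KO cells, had no overlapping WT plus UV peak. In KO plus UV a peak at 1221 to 1320 overlapped the last of them. FGD5 itself lies apart from it and carried 2, 5, 1 and 0 peaks. WAC-AS1 (chromosome 10, 28519917 to 28532354), which starts beside WAC, carried 3, 2, 2 and 3 peaks. MEIS1-AS3 (chromosome 2, 66423342 to 66433470) carried 3 peaks in each of the first 3 lists and 0 in KO plus UV.

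TTC28-AS1 (chromosome 22, 27919376 to 28002679) carried 3 peaks in WT cells without UV, 4 in those with UV and 0 in either KO list. Its gene overlaps TTC28 (chromosome 22, 27978014 to 28679840), a coding gene of tetratricopeptide repeats, over 24666 bases. TTC28 had 0 peaks in both WT lists, 10 in KO minus UV (bases 1211 to 7843 of its transcript) and 0 in KO plus UV, where both genes lacked a peak. The antisense transcript and its partner thus had peaks in no list in common. The sources used here do not say whether reads were counted by strand, so reads of the 2 genes may not be separable where their transcribed parts overlap. PCNA-AS1, antisense to the gene of the replication clamp PCNA, had 0, 0, 1 and 1 peaks while PCNA had 1 in every list.

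Of divergent transcripts, BAIAP2-DT (chromosome 17, 81029133 to 81034719) carried 4, 3, 3 and 3 peaks while its coding neighbour BAIAP2 carried 0 in every list. Peaks at bases 1101 to 1500, 1171 to 1510, 1181 to 1500 and 1231 to 1470 recurred in all lists. A peak at 1583 to 1730 in WT minus UV and 1574 to 1767 in WT plus UV was found in the WT lists alone, and one at 2001 to 2170 without UV and 1961 to 2170 with UV in the KO lists alone.

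Among LINC transcripts, LINC00674 (chromosome 17, 68101555 to 68135929) carried 5 and 6 peaks in the lists without UV and 1 peak in each list with UV. The peak left in both UV lists was the first, at bases 3568 to 3946 in WT and 3567 to 3880 in KO. Later peaks, which began at bases 5599, 9625, 9906 and 10641 in WT cells and at 5595, 9601, 9896 and 10651 in KO cells, were present without UV alone. LINC00205 (chromosome 21, 45288052 to 45297354) carried 5, 5, 2 and 0 peaks, with all 5 regions shared by the WT lists. LINC00265 had 3 peaks in KO minus UV alone. LINC00963 was a LINC transcript with 1 peak in each list, at bases 1741 to 1840, 1691 to 1837, 1681 to 1838 and 1681 to 1832.

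**Figure D2:**
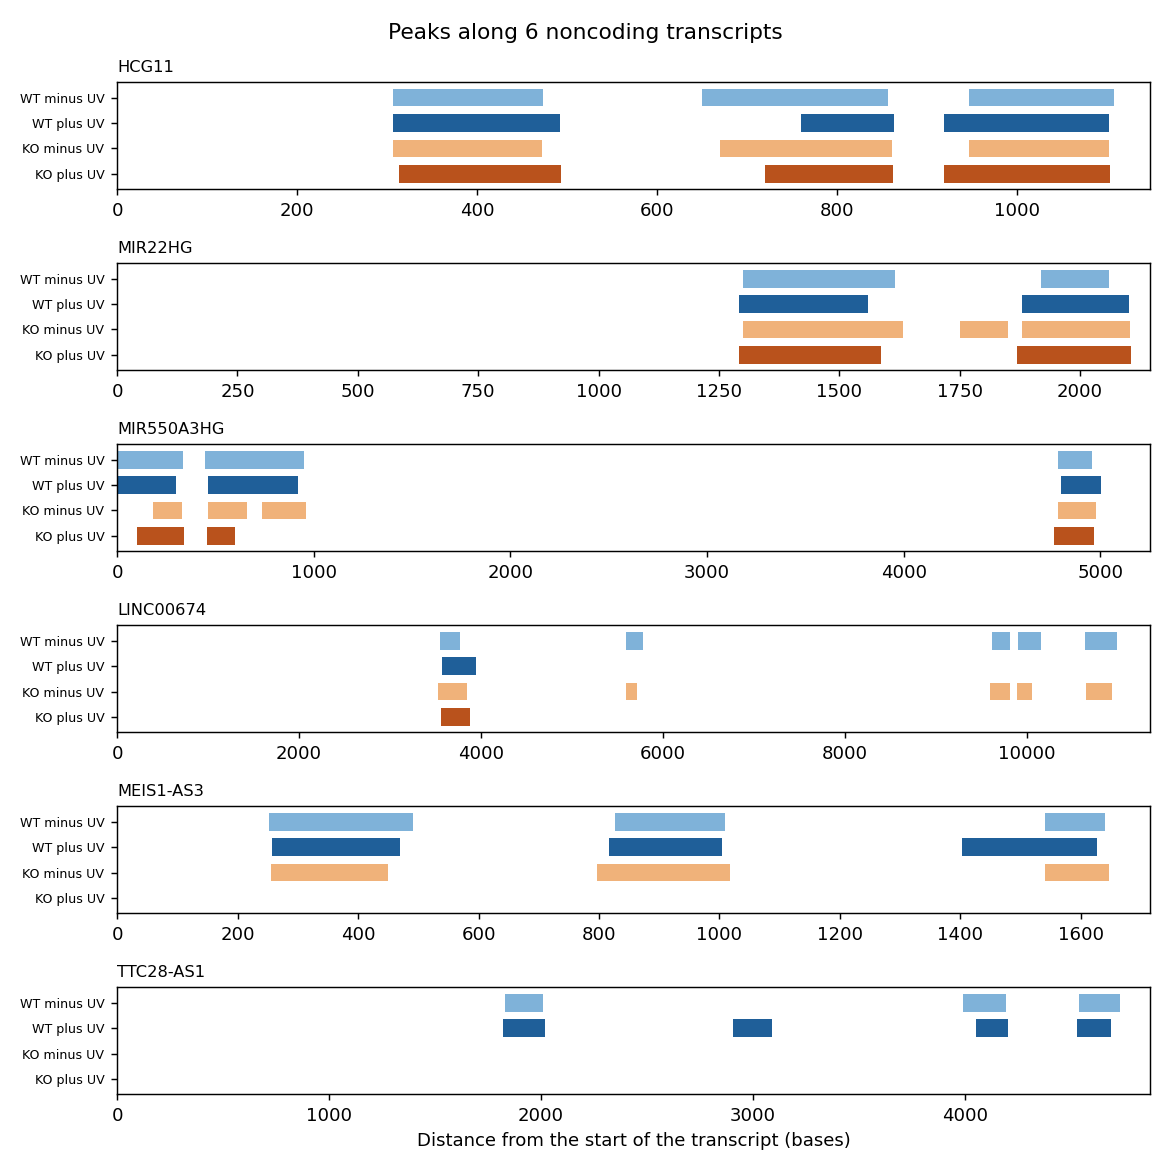
Positions of peaks along 6 noncoding transcripts, as distance from the start of the transcript in bases (horizontal axis), with 1 line of bars per peak list. HCG11, MIR22HG and MIR550A3HG hold peaks in every list, LINC00674 keeps 1 peak in each list with UV, MEIS1-AS3 holds 0 peaks in KO plus UV and TTC28-AS1 holds peaks in the WT lists alone.

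Among other long noncoding RNAs, HCG11 (chromosome 6, 26521706 to 26527393) carried 3 peaks in every list. Its first peak covered bases 307 to 473, 307 to 492, 308 to 472 and 314 to 493, and its last ended at 1108, 1102, 1102 and 1103. FAM225A and FAM225B, neighbouring near-copies on chromosome 9, carried 2, 4, 6 and 3 and 1, 4, 6 and 4 peaks. Because reads of such copies may be shared or split in counting, their separate values are uncertain. CHASERR, a transcript upstream of CHD2, had 1 peak in each list, at bases 1 to 130 in WT minus UV and at 834 to 1017, 861 to 1020 and 861 to 1015 in the other 3.

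Of 16 genes in a list linked to p53 or DNA damage, 5 had a peak on a noncoding transcript and 1 on a coding transcript alone. No share over all noncoding genes of the gene table was counted for this list or for the HOX and imprinted lists below. PURPL, which is induced by p53, had 1 peak in each list but KO plus UV, at bases 335 to 505, 335 to 502 and 341 to 500. PVT1, which lies beside MYC, had 1, 2, 2 and 0 peaks. HOTAIR, a transcript of the HOXC cluster, had 1 peak in WT minus UV alone and was the single one of 13 noncoding genes of the HOX clusters with a peak. LINC00963 and PCNA-AS1 are the other two of the 5. The genes of this group with a peak on a noncoding transcript numbered 4, 3, 4 and 2 by list, against 207, 247, 210 and 119 of all 374 noncoding genes. PARTICL, a radiation-induced transcript at the MAT2A promoter, had 1 peak of 413 bases, in WT plus UV alone. Of the 10 noncoding genes in the list of imprinted loci, 0 had a peak, but that list does not hold IPW, an imprinted transcript of the Prader-Willi region, which had 1 peak in each list without UV (bases 1181 to 1331 in WT, 1172 to 1330 in KO).

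Structured RNAs of the translation and processing machinery appeared with few peaks. RPPH1, the RNA of ribonuclease P, and the 18S ribosomal RNA gene RNA18SN5 had 1 peak each in KO plus UV alone. The ribosomal RNA gene RNA45SN5 had 1 peak in each list but KO plus UV, and SCARNA2 had 1 in each list but WT minus UV. RNA28SN5 had 1 peak in each WT list, at bases 4125 to 4292, and 1 in KO plus UV, at 611 to 764. By type these RNAs held 2, 3, 2 and 4 peaks.

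Among pseudogenes, SMPD4BP carried 3 peaks in every list and ZNF542P 2, 3, 1 and 3. EBLN3P, derived from a bornavirus nucleoprotein, carried 3, 4, 3 and 0, with the peaks at bases 689 to 903 and 904 to 1137 of WT plus UV recurring within a few bases in both lists without UV. DDX12P (chromosome 12, 9417691 to 9448172), a helicase pseudogene, carried 4, 4, 0 and 0, and CEP192P1 carried 3 in WT minus UV alone. CEP192, the parent of CEP192P1, carried 4, 4, 4 and 1 peaks. For 80 of the 139 pseudogenes a coding gene could be named from the symbol. In 131 of 175 gene and list pairs (74.9%) that gene had a peak in the same list, while 34.6%, 38.6%, 33.7% and 26.95% of all coding genes had one. The pairs count some parents more than once, such as SMG1 for SMG1P1, SMG1P3 and SMG1P5. All coding genes were counted, whether or not these cells transcribe them. The shares therefore cannot be set directly beside each other.

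Reads of a pseudogene and of its parent may not be separable where their sequences agree. Of 244 pseudogene peaks wider than 100 bases with a parent that could be named, 22 (9.02%, 6.03 to 13.3) had a parent peak within 10 bases of the same width at the same offset in at least 2 lists. They lay on 7 genes. How often peaks of unrelated genes match in this way was not tested, so a match alone does not show shared reads. GTF2IP1 and GTF2IP4, copies of the gene of transcription factor GTF2I, both matched it. GTF2IP1 carried 3, 5, 4 and 3 peaks and GTF2IP4 the same numbers, and in each list all of them lay within 10 bases of those of the other copy. The values of such copies cannot be told apart.

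Of the readthrough peaks 16 of 89 (18.0%, 11.4 to 27.2), on 6 genes, matched a partner, 8.96 points above pseudogenes (95% Newcombe interval 1.11 to 18.7). That interval takes peaks as separate, but a match had to recur in at least 2 lists, so the matched peaks repeat a few regions. It therefore does not show that the types differ. A readthrough peak could also match either of the genes joined, and a pseudogene peak its parent alone. In 62 of 70 readthrough gene and list pairs (88.6%) a partner had a peak in the same list. A single coding gene had one in 34.6%, 38.6%, 33.7% and 26.95% of cases by list. Since either gene joined counted here, the share cannot be set directly beside these or beside that of pseudogenes. MROH7-TTC4 (chromosome 1, 54641740 to 54742657) carried 1 peak in each list, at bases 5522 to 5969, 5541 to 5993, 5550 to 5977 and 5550 to 5970. The peak of TTC4 lay at 1431 to 1878, 1450 to 1902, 1459 to 1886 and 1459 to 1879, so the widths of 448, 453, 428 and 421 bases were identical to the base. For antisense transcripts 3 of 130 peaks matched, all on WAC-AS1, which does not overlap WAC in the genome, and for divergent transcripts 0 of 43 did. SLX1A-SULT1A3 and SLX1B-SULT1A4, whose starts are shown above, had the same peak of 110 bases from base 1 in WT plus UV and the same peak of 220 bases from base 1 in KO plus UV.

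Which noncoding peaks differ minutes after irradiation of WT cells was asked first. Of the 375 noncoding WT plus UV peaks, 172 (45.9%, 95% Wilson interval 40.9 to 50.9) had no overlap without UV, against 30.0% of all peaks of the list and 29.6% of coding ones. The difference from coding peaks was 16.3 points (95% Newcombe interval 11.3 to 21.4). In the other direction 112 of 313 noncoding peaks (35.8%) had no overlap, against 22.4% of all peaks, and the difference from coding peaks was 13.7 points (8.53 to 19.2). At the gene level 103 of 247 noncoding genes carried a peak with UV alone, against 20.9% of all genes, and 63 of 207 without UV alone, against 11.6%. SPECC1L-ADORA2A, a readthrough transcript, had 4 peaks in WT plus UV and 0 in every other list. SPECC1L and ADORA2A, the genes it joins, carried 4, 4, 6 and 3 peaks in the 4 lists. Whether the readthrough peaks hold reads of those genes was not tested.

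In METTL3 KO cells, 48 of 171 noncoding peaks with UV (28.1%) had no overlap without UV, against 22.6% of all peaks. The difference from coding peaks was 5.57 points with an interval that includes 0 (-0.684 to 12.8). Of the 311 noncoding peaks without UV, 187 (60.1%) had no overlap with UV, against 47.0% of all peaks and 13.4 points above coding ones (7.79 to 18.7). Of the LINC peaks 28 of 34 (82.4%, 66.5 to 91.7) had no overlap, 24.95 points above the other noncoding types (8.10 to 36.0). This is one of 92 such intervals over types and directions, of which 10 leave out 0. Of noncoding genes, 31 of 119 had a peak with UV alone, against 15.1% of all genes, and 122 of 210 without UV alone, against 32.7%.

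Between WT and KO cells without UV, 144 of 313 WT peaks (46.0%) had no overlap in KO, against 32.1% of all peaks, and 138 of 311 KO peaks (44.4%) had none in WT, against 31.1%. The differences from coding peaks were 14.2 points (8.69 to 19.8) and 13.6 points (8.17 to 19.3). Pseudogene peaks of KO minus UV lacked an overlap less often than the other noncoding types, with 41 of 116 (35.3%) and a difference of -14.4 points (-25.1 to -2.998). Peaks on LOC genes lacked one more often, with 15 of 19 (78.9%) and a difference of 36.8 points (13.8 to 50.5). Genes with a peak in WT alone were 88 of 207, against 22.3% of all genes, and in KO alone 91 of 210, against 20.1%.

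With UV, 247 of 375 WT peaks (65.9%) had no overlap in KO, against 51.0% of all peaks, and 44 of 171 KO peaks (25.7%) had none in WT, against 19.3%. The differences from coding peaks were 15.3 points (10.3 to 20.0) and 6.59 points (0.566 to 13.7). The lower bound of the second reached 0 under 3 of the alternative settings. LINC peaks of WT plus UV lacked an overlap in 33 of 39 cases (84.6%), 20.9 points above the other types (5.75 to 30.6). Genes with a peak in WT alone were 156 of 247, against 37.8% of all genes, and in KO alone 28 of 119, against 9.87%. The KO plus UV list rests on 2 IP libraries and the WT plus UV list on 4.

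**Figure D3:**
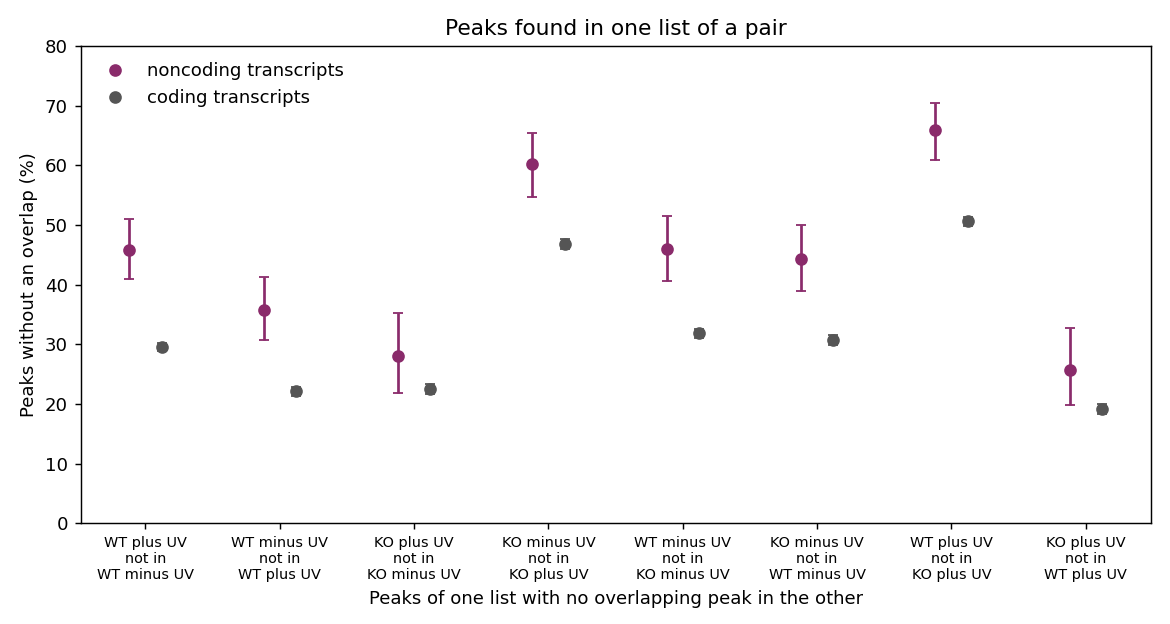
Share of peaks (vertical axis, percent) of one list with no overlapping peak in the other, for the 8 directions of the 4 comparisons, with 95% Wilson intervals as bars, noncoding and coding transcripts apart. The noncoding share is the higher in each direction, by 5.57 to 16.3 points.

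Most noncoding peaks that had no overlap were on transcripts lacking any peak in the other list. This was so for 131 of 172 in WT plus UV against WT minus UV (76.2%, 69.3 to 81.9), while for coding peaks it was 50.0%. Over the 8 directions the share ran from 63.6% to 87.0% for noncoding and from 33.8% to 66.4% for coding peaks. When only transcripts with a peak in both lists were counted, the difference between noncoding and coding peaks ran from -5.62 to 0.232 points, and each of the 8 intervals includes 0. Among transcripts with a single peak in the first list, the noncoding share was the higher in all 8 directions, by 12.8 to 26.3 points. Among those with 2 or more peaks the difference ran from -4.03 to 13.6 points, was below 0 in 3 directions and had an interval that includes 0 in 4 of 8. Noncoding peaks present in both lists had median distances between centres of 9.50, 10.0, 13.0 and 12.5 bases in the 4 comparisons, against 9.50, 11.0, 13.0 and 12.5 for coding ones.

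Overlapping peaks of all lists formed 580 noncoding regions. Of these, 85 (14.7%, 12.01 to 17.8) held a peak in every list, against 25.7% of all regions and 26.0% of coding ones. A single list accounted for 277 (47.8%, 43.7 to 51.8), against 31.6% of all regions and 31.2% of coding ones. By type, the regions with a peak in every list were 37 of 224 on pseudogenes, 7 of 79 on antisense transcripts, 5 of 65 on LINC transcripts, 8 of 45 on readthrough transcripts and 4 of 26 on divergent ones.

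**Figure D4:**
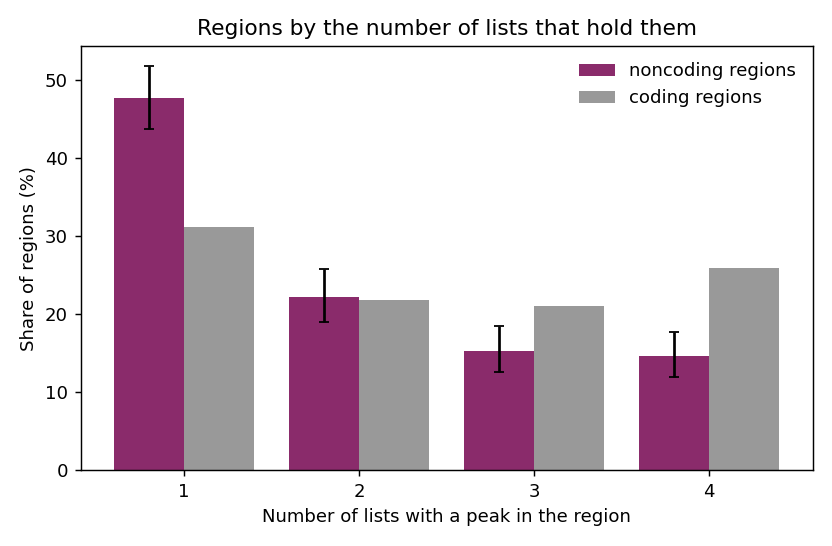
Share of regions (vertical axis, percent) with a peak in 1, 2, 3 or 4 of the lists (horizontal axis), for 580 noncoding and 20221 coding regions, with 95% Wilson intervals for the noncoding shares. The noncoding share is 47.8% for 1 list and 14.7% for 4 lists, against 31.2% and 26.0% for coding regions.

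Of the 374 noncoding genes, 62 (16.6%) had a peak in every list, against 41.1% of all genes. A peak in both lists without UV and in neither list with UV was found for 15 noncoding genes (4.01%), against 2.29% of all genes. SLC25A25-AS1 (chromosome 9, 128111171 to 128118734) was one, with 3 peaks in each of the lists without UV. The first, at bases 1 to 237 and 21 to 130, and the next, at 1305 to 1706 and 1381 to 1580, overlapped between WT and KO, while the last did not. PLEKHM1P1 (chromosome 17, 64784841 to 64837184), a pseudogene of PLEKHM1, was another, with peaks at 1099 to 1545 and 1573 to 1758 in WT cells and at 1121 to 1521 and 1580 to 1758 in KO cells. LINC00648, LINC01347 and IPW had the same pattern. The parent PLEKHM1 had a peak in every list, with 2, 4, 4 and 1.

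The reverse, a peak in both lists with UV and in neither without, was found for 7 noncoding genes (1.87%), against 1.97% of all genes. They included DLGAP1-AS1, NUTM2A-AS1, LINC00673 and the pseudogenes FAM86DP and PLEKHA8P1, and the SLX1 copies shown above make up the 7. Peaks in each WT list and none in KO were found for 33 (8.82%), against 7.21% of all genes, with TTC28-AS1 and DDX12P the longest by total peak length. Peaks in each KO list and none in WT were found for 11 (2.94%), against 1.99%, among them LINC01128, PCNA-AS1 and the pseudogene RPS26P11, whose peaks matched those of RPS26. A further 37 genes (9.89%, against 13.6% of coding genes) lacked a peak in KO plus UV alone, among them EBLN3P, LINC00205, MEIS1-AS3, PVT1 and PURPL.

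**Figure D5:**
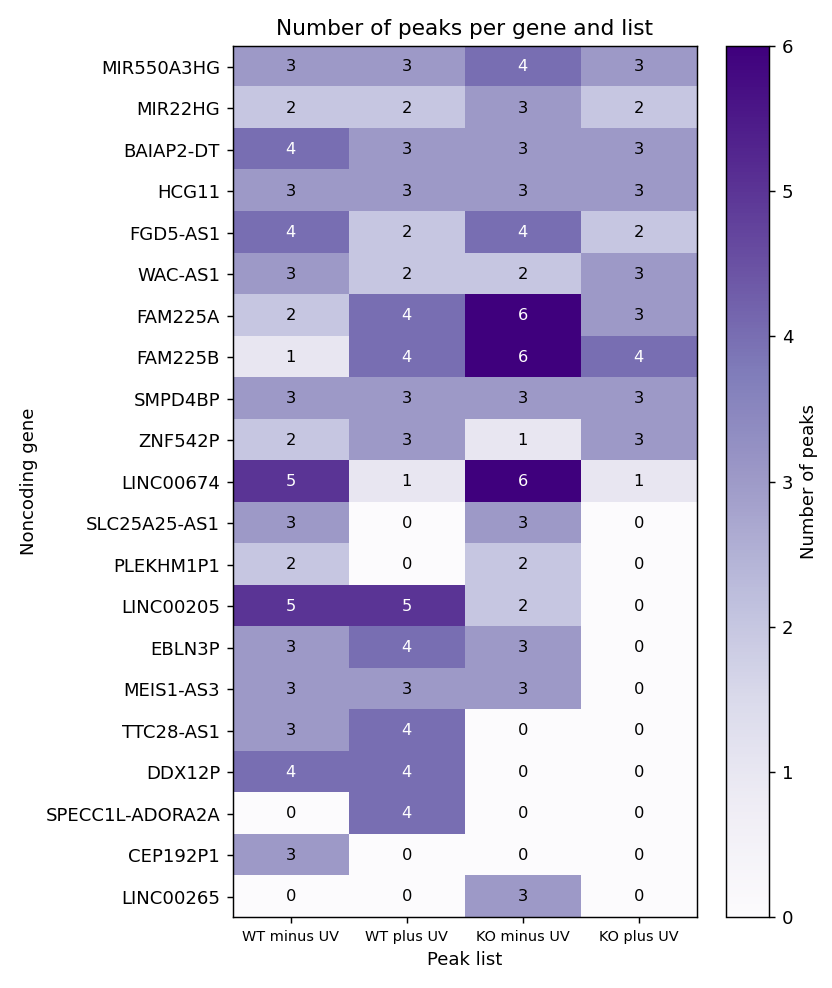
Number of peaks of 21 noncoding genes (vertical axis) in each peak list (horizontal axis), written in each cell and shown by colour. HCG11 and SMPD4BP hold 3 peaks in every list, LINC00674 holds 5, 1, 6 and 1, and TTC28-AS1 and DDX12P hold peaks in the WT lists alone.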

How the data were processed

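IP and input libraries were aligned to hg38 with TopHat2 2.0.14 (submitters' processing notes). Neither the peak caller and its threshold nor the pooling of replicates or the use of strand is stated: not given in the sources used here. Deposited values have no unit of signal (other): the authors' lists give the start and end of each peak on a transcript, read here as counted from 1.

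Members and lists were chosen with earlier results of these data known. Accessions were matched to a RefSeq gene table (GRCh38.p14): 347 of 375 (92.5%), with 14 carrying a copy number. Gene types followed the symbol, except pseudogenes and structured RNAs, which followed the gene type given in that table. Readthrough, LOC, structured RNA, divergent and other types were added after the data were seen. Named genes were the longest by total peak length per type (5) and per pattern across lists (10), and members of 7 fixed lists, with LOC genes skipped after the first 2 of each rank. An overlap was at least 1 base on the same transcript. Shares carry 95% Wilson and differences Newcombe intervals, and no test was made between lists. Genes are also named where a match to a partner or a copy singles them out, chosen after their values were seen. Overlaps were tested on simulated data with a known share of peaks removed. Python 3.11.15 and pandas 2.3.3 were used.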

Additional observations from a re-analysis of the deposited data

Results flagged for a closer look

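The number of noncoding peaks was higher with UV in WT cells and lower with UV in METTL3 KO cells. In WT it rose from 313 to 375, by 62, and in KO it fell from 311 to 171, a change of -140, so that the changes differ by 202 peaks. The difference was not tested, since each condition has 1 list. All peaks of the series changed by 1476 in WT and by -4381 in KO, and the KO plus UV list rests on 2 IP libraries against 4 for WT plus UV.

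Of the gene types with at least 10 peaks in a list, 7 had the same opposite directions, also not tested, while divergent transcripts had fewer peaks with UV in both WT (15 and 13) and KO (12 and 6). Among the smaller types, microRNA hosts also had opposite directions (5 and 6 in WT, 8 and 5 in KO). The changes in WT and KO differ by 59 peaks for pseudogenes (14 and -45), by 37 for antisense transcripts (15 and -22) and by 34 for LINC transcripts (7 and -27). They differ by 21 for other long noncoding RNAs (6 and -15), by 18 for LOC genes (5 and -13), by 14 for readthrough transcripts (11 and -3) and by 10 for unmatched accessions (4 and -6).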

How the results depend on the processing

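No paired analysis was possible because each condition has 1 pooled peak list with no replicate, and leaving out a replicate could not be run for the same reason. Also not run were the share of peaks with a consensus motif and its alternatives, and positions relative to transcript length, since no sequence or length of the listed transcripts was used here. Peaks without a score allow no stricter threshold, and the depth behind them is unknown.

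The shares without an overlap stayed within their main intervals when an overlap had to cover 50% of the shorter peak, when peaks within 100 bases were merged, when copy-numbered transcripts were left out and when the 4 left-out genes were kept in. Leaving out transcripts of protein-coding genes removed none. With peaks of at least 150 bases, median widths became 190, 190, 191 and 188 bases by construction, the WT plus UV share of noncoding peaks 2.19%, start shares 8.89% in WT plus UV and 7.83% in KO minus UV, and the regions in every list 55. Counting genes, the noncoding shares were 2.87%, 3.07%, 2.99% and 2.14%.

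Chosen after seeing the data, leaving out pseudogenes and readthroughs gave noncoding shares of 1.12%, 1.26%, 1.27% and 0.874%, start shares of 6.45%, 9.38%, 6.32% and 9.76%, 40 regions in every list, and 51.7% of KO minus UV peaks without a WT minus UV overlap. Genes alone were then 61 (WT plus against minus UV) and 34 (reverse), 16 (KO plus against minus UV) and 72 (reverse), 49 (WT against KO without UV) and 58 (reverse), and 89 (WT against KO with UV) and 15 (reverse). Leaving out unmatched accessions moved no result. The difference from coding peaks ran from 4.33 to 21.0 points over these settings and the 8 directions. Its interval stayed above 0 in 6 directions, and for KO plus UV against KO minus UV it included 0 under each of the 8 settings compared. For KO plus UV against WT plus UV the interval reached 0 under 3 of them: the lower bound became -0.00458 with an overlap of 50%, -0.158 without copy-numbered transcripts and -0.745 without pseudogenes and readthroughs.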
